A study of Mus musculus with 48 samples.

Results

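TdTomato+ endothelial cells of the mouse heart were compared between 6 weeks of age and postnatal day 1 (P1), using 9 of the 48 RNA-seq libraries of the series. The 9 libraries were those labelled heart, endothelial and TdTomato positive at either age: libraries 1, 2, 4, 5 and 6 at 6 weeks and libraries 2, 3, 4 and 5 at P1. P1 library 1, which the submitters marked as failing quality control, was left out. The study as a whole sorted endothelium from lung, heart and muscle of mice of the strain Abcg2CreERT; ROSATdTomato, in which a tamoxifen-dependent Cre made in Abcg2-expressing cells switches on a red fluorescent reporter, and it calls the TdTomato+ cells vascular endothelial stem cells. Neonates and 6-week-old mice alike had received tamoxifen at 50 mg/kg intraperitoneally 24 hours before the tissue was taken, so every library below carries the Cre, the reporter and the drug. Cells were gated as CD31+CD45-Ter119-, which takes endothelium and leaves out leukocytes and erythroid cells. A TdTomato+ cell is therefore one that had Abcg2-driven Cre activity on the day before sorting, at either age, and not a descendant followed from birth to 6 weeks. The labels do not say whether a library is 1 animal or a pool, and p-values below measure the spread between these libraries, which may in part be technical. The tissue characteristic of 6-week libraries 5 and 6 reads Muscle while their titles and source names read Heart; they were used as heart.

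At birth the coronary and capillary bed of the mouse heart is still growing with the myocardium, and its endothelial cells divide. In the weeks after birth the heart turns from glucose and lactate to fatty acids as its main fuel, the pups pass through weaning, and the capillary endothelium becomes largely quiescent and takes over the transport of lipoprotein-derived fatty acids to cardiomyocytes. ABCG2 belongs to the ATP-binding cassette (ABC) transporters, pumps drugs and porphyrins out of cells, and so protects cells from them, and it is used as a marker of stem-like side-population cells.

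Values are gene counts scaled for library size with TMM factors (CPM) and are given in library order, P1 libraries 2, 3, 4 and 5 first and 6-week libraries 1, 2, 4, 5 and 6 second. Fold changes are 6 weeks over P1 on the log2 scale with their standard error, and a gene was called where the Benjamini-Hochberg adjusted p from the quasi-likelihood test of edgeR, taken over 13179 genes, was below 0.05. Total counts were between 17512843 and 23457960 per library. RNA integrity numbers ran from 3.6 to 8.5 at P1 and from 7.4 to 9.4 at 6 weeks (exact two-sided permutation test, p = 0.151, the smallest possible being 0.0159). Libraries 5 and 6 at 6 weeks came from a second sequencing run with 2.93% and 5.01% of mitochondrial reads, against 0.640% to 1.09% in the other 7, and no P1 library was in that run. By Xist and Ddx3y RNA, 6-week libraries 1, 2 and 6 held Ddx3y at 95.0 to 107 CPM with almost no Xist, 6-week libraries 4 and 5 and P1 libraries 2, 3 and 4 held Xist at 109 to 429 CPM with almost no Ddx3y, and P1 library 5 held both, at 44.5 and 62.7 CPM. Sex-linked RNA was thus not balanced between the ages; among the libraries with Xist alone, 3941 genes were called.

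The age difference was broad. Of the 13179 genes tested, 5147 were called (39.1%), 2574 higher at 6 weeks (19.5%) and 2573 lower (19.5%), and the median log2 fold change over all genes was 0.03. Groups did not overlap in CPM for 4396 genes (33.4%). A fold change of at least 2 was reached by 1577 of the higher genes (12.0%) and 1242 of the lower genes (9.42%). Counts of rises and falls with age in the gene lists below are to be read against 19.5% of all genes each way. Genes that are given below with a fold change alone, without library values, lie outside the rule for named genes and were chosen after their values were seen. With no scaling beyond total counts the split was 2225 higher and 3038 lower, and the median gene then moved to -0.08, so the balance of directions rests on the scaling. With the failed P1 library 1 put back, 655 genes were called.

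Abcg2 itself (chr6:58596672-58692451, plus strand, mm10), the gene that drives the Cre, measured 124, 123, 79.1 and 139 CPM at P1 and 242, 189.6, 217, 248 and 225 CPM at 6 weeks. Every 6-week library lay above every P1 library. The log2 fold change was 0.95 ± 0.16 (edgeR adjusted p = 0.000829).

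The sorted cells carried the RNA of endothelium at both ages. The 22 pan-endothelial markers summed to 18073, 18374, 16766 and 21611 CPM at P1 and to 25198, 22055, 25423, 26630.2 and 25821 CPM at 6 weeks. Single markers did differ with age: 10 of the 22 rose and 5 fell, against 19.5% of all genes each way. Cdh5, which encodes the adherens junction protein VE-cadherin, measured 1119, 919, 972 and 1261 CPM at P1 and 1136, 893, 984, 772 and 897 CPM at 6 weeks, with overlapping groups and no call (log2 fold change -0.19 ± 0.14, edgeR adjusted p = 0.311). Ptprc, the CD45 gene that the gate selects against, did not pass the filter on low counts, and neither did C1qa, a macrophage complement gene. Markers of pericytes and smooth muscle, the mural cells that wrap vessels, differed far more. Their 14 genes summed to 51.3, 32.06, 39.8 and 96.7 CPM at P1 and to 1165, 2083, 1356, 328 and 1031 CPM at 6 weeks, 21.7 times the P1 mean, with no overlap. Of these 14 genes 13 rose, against the 19.5% of all genes that rose, with a median log2 fold change of 5.79. Myh11, smooth muscle myosin, went from 0, 0, 0.0447 and 1.17 CPM to 159, 241, 172, 42.6 and 126 CPM (log2 fold change 8.82 ± 0.88, edgeR adjusted p = 1.61e-05). Pdgfrb, the receptor by which endothelium recruits pericytes, went from 0, 0, 2.90 and 5.24 CPM to 105, 221, 92.4, 36.8 and 81.6 CPM (log2 fold change 5.69 ± 0.99, edgeR adjusted p = 0.000848). In both genes the lowest 6-week value came from library 5 and still stood above all P1 values.

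Other cell types moved less. Fibroblast markers summed to 144, 159.8, 199 and 499 CPM at P1 and 664, 1346, 435, 323 and 368 CPM at 6 weeks, with 5 of 16 tested members rising and 2 falling, against 19.5% of all genes each way, and 9 rising without P1 library 5. Cardiomyocyte markers summed to 156, 176, 185 and 390.4 CPM and 265, 333, 260.3, 566 and 953 CPM, highest in the libraries of the second run; 7 of 19 tested members rose and 1 fell. Within the first run that became 1 up and 1 down, and the rises numbered from 2 without 6-week library 6 to 13 without P1 library 5. Tnni1, the slow skeletal troponin I that fetal and neonatal cardiomyocytes use, was the member that fell, from 4.65, 7.21, 4.65 and 12.9 CPM to 0, 0, 0, 0 and 0.230 CPM (log2 fold change -7.27 ± 1.03, edgeR adjusted p = 0.000207). Leukocyte markers summed to 11.6 to 68.9 CPM at 6 weeks and 14.11 to 41.2 CPM at P1, and the highest value was that of 6-week library 6. P1 library 5 had the highest endocardial, lymphatic, cardiomyocyte, fibroblast and mural sums of the P1 group. Its pan-endothelial sum was the highest of that group as well. The part of these other cell types in the age differences below was not tested.

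**Figure D1:**
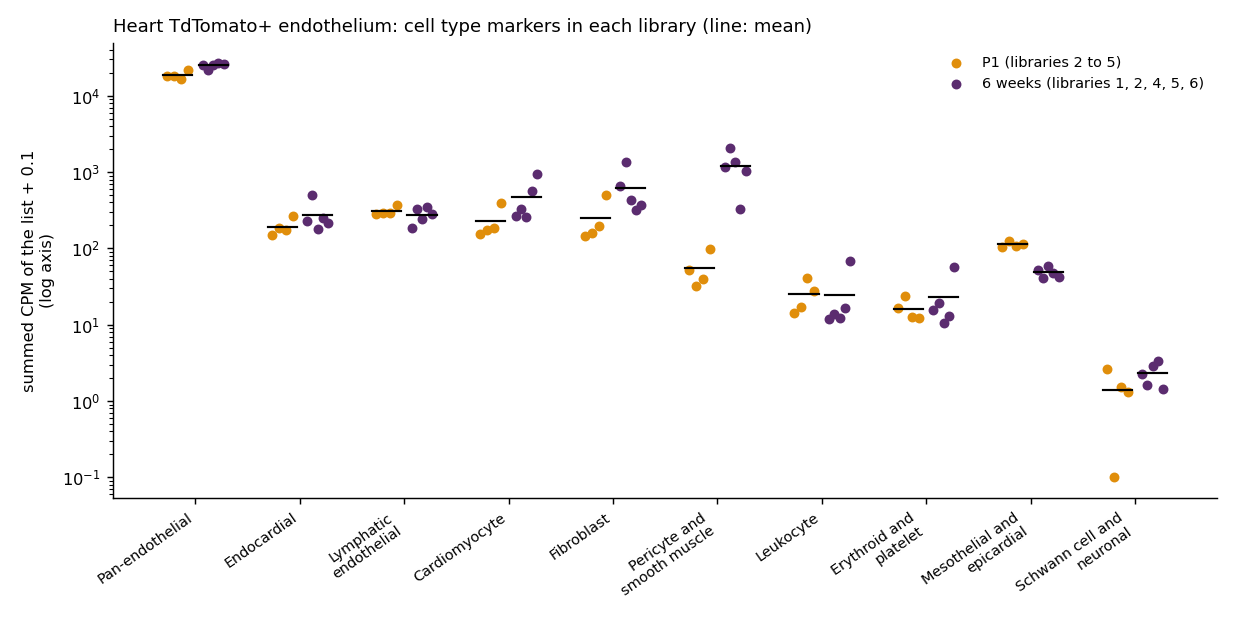
Summed CPM of 10 marker lists (log axis, 0.1 added) in each P1 library (orange) and each 6-week library (purple), with a line at the group mean. The pericyte and smooth muscle sum is 32.06 to 96.7 CPM at P1 and 328 to 2083 CPM at 6 weeks, while the pan-endothelial sum runs from 16766 to 26630.2 CPM.

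The RNA of cell division was lower at 6 weeks throughout. All 26 genes tested of a list of mitosis and G2/M genes fell, all of them by at least 2-fold, with a median log2 fold change of -4.89, where 19.5% of all genes fell and the median over all genes was 0.03. Mki67, the source of the Ki-67 proliferation antigen, measured 110.2, 66.0, 145 and 109 CPM at P1 and 0.973, 4.67, 3.38, 0.837 and 0.918 CPM at 6 weeks. Top2a, the topoisomerase that untangles sister chromatids, measured 50.03, 34.6, 96.8 and 101 CPM and 2.50, 0.441, 2.09, 0.502 and 1.09 CPM. Ccnb1, the cyclin partner of CDK1 at mitotic entry, measured 32.6, 18.7, 33.3 and 56.5 CPM and 0.0463, 0.309, 1.64, 1.005 and 0.287 CPM. In all 3 genes the lowest P1 library held more than 10 times the highest 6-week library. Their log2 fold changes were -5.61 ± 0.51, -5.72 ± 0.53 and -5.75 ± 0.67 (edgeR adjusted p = 8.98e-06, 9.87e-06 and 4.95e-05). Cdk1, the kinase of mitotic entry, went from 73.6, 72.1, 99.6 and 68.0 CPM to 3.57, 4.19, 2.29, 3.91 and 2.52 CPM, and had the smallest p of the list together with Birc5 and Cdca8, members of the chromosomal passenger complex. In bulk samples such as these, fewer dividing cells and less of the RNA per cell cannot be told apart.

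All 28 DNA replication and S phase genes fell as well, 24 of them by at least 2-fold, with a median log2 fold change of -2.62. Tk1, the thymidine kinase of the salvage pathway, dropped from 75.2, 63.6, 129.6 and 48.8 CPM to 1.76, 1.85, 1.39, 0.893 and 1.09 CPM (log2 fold change -5.81 ± 0.34, edgeR adjusted p = 3.45e-07). Mcm5, a subunit of the replicative helicase, went from 129, 138, 185 and 151 CPM to 11.5, 10.4, 22.9, 26.5 and 18.6 CPM. Pcna, the sliding clamp of DNA polymerase, which also serves in repair, kept the most RNA of these 3, going from 112, 128, 129.9 and 94.3 CPM to 48.4, 45.9, 46.2, 41.6 and 53.4 CPM (log2 fold change -1.30 ± 0.13, edgeR adjusted p = 2.11e-05). The groups did not overlap in any of the 3 genes. The mildest falls of the list were those of Pola1, Mcm6, Rrm1 and Mcm4, between -0.91 and -0.99. The count of falls was 27 or 28 when any 1 library was left out, and 25 in the libraries with Xist alone.

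The genes that restrain the cycle moved the other way in part. Of 16 brake and quiescence genes 8 rose and 1 fell, with a median log2 fold change of 0.67. Cdkn1a, the p21 inhibitor of cyclin-dependent kinases, rose from 86.2, 116, 122 and 66.2 CPM to 863, 769, 1552, 861 and 716 CPM (log2 fold change 3.29 ± 0.28, edgeR adjusted p = 4.85e-06). The highest 6-week value was that of library 4, and all 5 lay above 5 times the highest P1 value. Cdkn1c, the imprinted p57 inhibitor, rose from 229, 227, 216 and 163 CPM to 469.6, 330.5, 446, 397 and 578 CPM, and Txnip, which blocks thioredoxin and glucose uptake, from 409.9, 442, 401 and 694 CPM to 2027, 1798, 1765, 2739.7 and 2659 CPM. Cdkn1b, the p27 inhibitor, measured 19.08, 12.9, 14.3 and 9.28 CPM and 20.11, 17.3, 20.7, 8.99 and 7.29 CPM and was not called (log2 fold change 0.10 ± 0.35, edgeR adjusted p = 0.846). Rbl1, the p107 pocket protein, was the member that fell (log2 fold change -0.67), a call lost without P1 library 4 or 5.

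Chromatin genes tied to replication followed the cycle list. Of 14 DNA methylation and polycomb genes 7 fell and 2 rose. Uhrf1, which brings the maintenance methyltransferase to newly copied DNA, fell from 90.2, 87.4, 87.7 and 69.5 CPM to 1.25, 2.38, 0.348, 2.01 and 1.38 CPM (log2 fold change -5.82 ± 0.38, edgeR adjusted p = 8.02e-07). Of the paired polycomb methyltransferases, Ezh2 went from 33.7, 24.6, 52.4 and 30.5 CPM to 7.32, 6.44, 8.35, 7.76 and 3.33 CPM and Ezh1 from 54.4, 62.2, 42.1 and 88.7 CPM to 189, 169, 201, 272 and 205 CPM. Ezh2 was thus the lower and Ezh1 the higher at 6 weeks, with log2 fold changes of -2.41 ± 0.30 and 1.74 ± 0.22 (edgeR adjusted p = 7.91e-05 and 7.91e-05). Cbx7, a reader of the polycomb mark in differentiated and quiescent cells, rose from 0.547, 6.11, 5.41 and 3.703 CPM to 100.4, 94.3, 116, 77.9 and 86.9 CPM, P1 library 2 being the lowest of all.

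**Figure D2:**
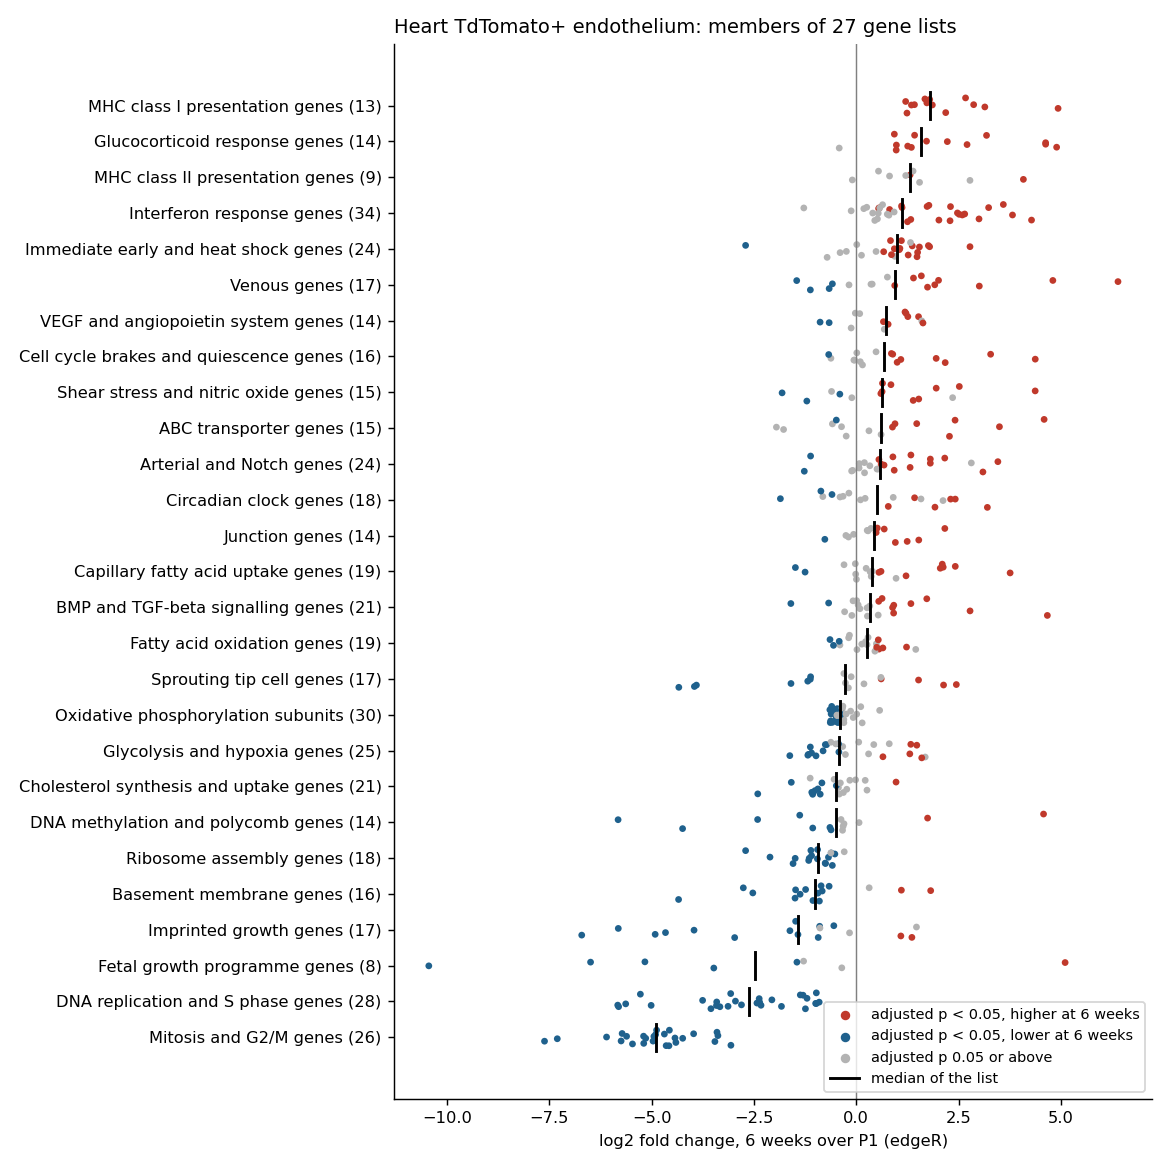
Log2 fold change, 6 weeks over P1, of each tested member of 27 gene lists (1 point a gene, number of tested members in brackets, black bar at the list median); red and blue points have an adjusted p below 0.05. The mitosis and replication lists lie wholly on the lower side, with medians of -4.89 and -2.62, the class I presentation list wholly on the higher side, with a median of 1.80, and the leftmost point, Igf2bp1, has no count at 6 weeks, so that its plotted value depends on the prior count.

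The promoters of the mitotic genes share sequence features that the expression values did not use. Genes of the G2 and M phases are known to be held silent in quiescent cells through the cell cycle genes homology region (CHR, here the letters TTTGAA). Many of them also carry CCAAT boxes, which the factor NF-Y binds. Replication genes are known to be held silent through E2F sites (here TTTGGCGC, TTTCGCGC or TTTCCCGC). RefSeq promoter windows, 250 bases before to 50 after each start on GRCm38.p6, were searched on both strands. For the mitosis list 21 of 26 genes matched, with 22 windows: 17 held the CHR letters (77.3%) and 19 the CCAAT letters (86.4%), against 17.9% and 37.4% of all 32851 windows. In the 29 windows of 24 replication genes the CHR share was 13.8%, the CCAAT share 55.2% and the E2F share 34.5%. An E2F match was held by 1 of the mitosis windows (4.55%) and by 1.84% of all windows. In the 12684 windows of the genes tested the shares were 11.9% for CHR, 37.5% for CCAAT and 3.41% for E2F. A match is a description of the letters and not of binding. The windows below, printed 5′ to 3′ on the gene's strand, are those of the 2 mitosis genes and the 1 replication gene with the smallest p among genes whose window held the CHR or E2F letters. Capitals mark CHR and CCAAT letters in the first 2 windows, with CCAAT shown as ATTGG where the box lies on the other strand. In the third window they mark the E2F letters. E2F letters were not marked in the first 2 windows. The Cdk1 window holds them too, as TTTCGCGC in lower case, and is the 1 mitosis window with an E2F match.
Cdk1, chr10:69352863-69353162, minus strand: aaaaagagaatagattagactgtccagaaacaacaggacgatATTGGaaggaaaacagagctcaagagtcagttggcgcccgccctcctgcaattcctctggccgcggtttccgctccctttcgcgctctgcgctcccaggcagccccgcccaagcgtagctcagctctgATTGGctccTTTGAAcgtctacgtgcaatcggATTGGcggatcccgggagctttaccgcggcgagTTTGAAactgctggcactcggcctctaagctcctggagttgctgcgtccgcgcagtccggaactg
Cdca8, chr4:124936868-124937167, minus strand: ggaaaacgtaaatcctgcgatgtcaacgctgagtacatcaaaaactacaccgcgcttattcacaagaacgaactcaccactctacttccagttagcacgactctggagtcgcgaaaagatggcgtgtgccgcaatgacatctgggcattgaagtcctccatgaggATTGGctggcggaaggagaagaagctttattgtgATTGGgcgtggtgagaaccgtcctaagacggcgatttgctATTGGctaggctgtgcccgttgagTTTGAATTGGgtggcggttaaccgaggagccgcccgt
Lig1, chr7:13278576-13278875, plus strand: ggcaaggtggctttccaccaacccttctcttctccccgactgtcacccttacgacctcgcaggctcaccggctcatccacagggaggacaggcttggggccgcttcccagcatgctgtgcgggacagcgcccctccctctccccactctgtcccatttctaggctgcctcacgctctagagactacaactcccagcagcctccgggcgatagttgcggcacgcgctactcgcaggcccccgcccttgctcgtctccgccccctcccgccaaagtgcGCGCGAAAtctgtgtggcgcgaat
The Cdk1 window holds CHR letters starting 71 and 15 bases before the start and CCAAT boxes starting 208, 80 and 48 bases before it. In Cdca8 the CHR letters start 14 bases after the start and share their last base with the first base of a reverse CCAAT box, and 3 more boxes start 85, 51 and 11 bases before it. In Lig1, the DNA ligase that joins replication fragments, the E2F letters lie on the other strand and start 27 bases after the start. Lig1 RNA measured 71.2, 87.95, 77.7 and 58.9 CPM at P1 and 12.5, 14.2, 17.2, 16.7 and 13.14 CPM at 6 weeks, and Cdca8 60.4, 26.9, 64.5 and 59.3 CPM and 0.788, 2.87, 1.74, 1.45 and 1.66 CPM. Library 3 was the lowest P1 library for Cdca8, and neither gene's groups overlapped.

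Several RNAs of the fetal growth programme fell. Of 8 tested members 5 fell and 1 rose, against 19.5% of all genes each way, with a median log2 fold change of -2.46. Igf2bp3, an RNA-binding protein of embryonic tissues that stabilises growth mRNAs, fell from 35.4, 31.6, 48.96 and 28.3 CPM to 0.834, 1.15, 0.397, 2.01 and 0.631 CPM (log2 fold change -5.16 ± 0.41, edgeR adjusted p = 3.42e-06). Hmga2, a chromatin architectural protein of fetal stem cells, fell from 6.89, 10.9, 8.62 and 4.37 CPM to 0.0927, 0.132, 0, 0.112 and 0.0574 CPM (log2 fold change -6.49 ± 0.67, edgeR adjusted p = 2.18e-05). Igf2bp1 measured 9.46, 12.8, 6.30 and 4.74 CPM at P1 and had no count in any 6-week library, which puts it at least 277-fold lower against a floor of 3 counts over the 6-week group. Lin28b, the RNA-binding repressor of let-7 maturation, did not pass the filter on low counts, and Lin28a was not analysed here. Arid3b, a DNA-binding protein, was the member that rose, from 0.164, 0, 0 and 0.624 CPM to 4.82, 6.79, 5.76, 10.2 and 7.75 CPM; it and Igf2bp1 lie outside the rule for named genes and were chosen after their values were seen.

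Imprinted growth genes, expressed from 1 parental allele and known to be switched off together as organs stop growing, fell in 12 of 17 tested cases and rose in 2. Igf2, the fetal insulin-like growth factor (chr7:142650768-142661035), fell from 1460.5, 1342, 1245 and 742 CPM to 46.9, 99.8, 37.6, 28.5 and 23.5 CPM, and H19, its neighbouring noncoding RNA (chr7:142575530-142578146), from 639, 516, 654 and 222 CPM to 1.90, 32.2, 3.53, 3.13 and 3.90 CPM. The 6-week value of H19 in library 2 was several times those of the other 4 libraries, and P1 library 5 was the lowest of its group for both genes. The log2 fold changes were -4.66 ± 0.41 and -5.81 ± 0.82 (edgeR adjusted p = 6.78e-06 and 0.000192). Mest, an imprinted hydrolase-family gene, went from 2403, 1738, 1782 and 4175 CPM to 79.8, 80.2, 75.7, 89.6 and 93.6 CPM (log2 fold change -4.91 ± 0.26, edgeR adjusted p = 2.46e-07). Gnas, the stimulatory G protein subunit, showed a smaller fall, from 4113, 4083, 3740.2 and 3903 CPM to 2163, 2042, 1995, 1982 and 2219 CPM. The members that rose were Cdkn1c, given above, and Impact (log2 fold change 1.36), a translational regulator.

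Of 18 ribosome assembly genes 16 fell, 8 of them by at least 2-fold, with a median log2 fold change of -0.95. Myc, the transcription factor that drives ribosome production, fell from 43.1, 69.8, 64.1 and 38.8 CPM to 10.9, 12.8, 3.58, 4.69 and 9.35 CPM (log2 fold change -2.70 ± 0.36, edgeR adjusted p = 0.000130). Ncl, the nucleolar protein nucleolin, fell from 302, 329, 326 and 224 CPM to 153, 159, 114, 126 and 142 CPM, and Fbl, the rRNA methylase fibrillarin, from 57.03, 58.4, 66.6 and 21.6 CPM to 10.5, 13.2, 13.8, 12.8 and 8.78 CPM. P1 library 5 was the lowest of its group in all 3 genes and still above every 6-week library.

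Of 19 genes of capillary fatty acid uptake 8 rose, 2 fell and 9 were not called, against 19.5% of all genes each way, with a median log2 fold change of 0.39. Cd36, the long-chain fatty acid translocase (chr5:17781690-17888959), measured 2231, 2694, 1904 and 5815 CPM at P1 and 13474, 10364, 11328, 15750.2 and 14721 CPM at 6 weeks (log2 fold change 2.05 ± 0.30, edgeR adjusted p = 0.000273). Lpl, the lipoprotein lipase that frees fatty acids from circulating triglyceride, measured 456, 408, 345 and 549 CPM and 2259, 1863, 2836, 2348 and 2462 CPM (log2 fold change 2.42 ± 0.17, edgeR adjusted p = 1.34e-06). Gpihbp1, which carries that lipase to the capillary lumen, measured 1878, 2049, 2109 and 1405 CPM and 2885, 2234, 3033, 2557 and 2955 CPM, a smaller rise of 0.55 ± 0.15 (edgeR adjusted p = 0.0102). All 3 were higher in every 6-week library than in any P1 library. Timp4, a metalloproteinase inhibitor of cardiac vessels, and Car4, a carbonic anhydrase on the luminal face of capillaries, had the smallest p of the list beside Lpl: Timp4 rose from 109.7, 97.9, 115 and 169 CPM to 1512, 1445, 1532, 1649 and 2190.0 CPM. Fabp4, the abundant fatty acid chaperone of microvessels, was already at 7611, 7968, 8756 and 5446 CPM at P1 and at 10778, 8111, 9046, 7148 and 8955 CPM at 6 weeks, overlapping and not called (log2 fold change 0.24 ± 0.16, edgeR adjusted p = 0.249). The members that fell were the chaperone Fabp5 (-1.25) and Angptl4, an inhibitor of lipoprotein lipase (-1.49).

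The steps after uptake showed smaller and mixed differences. Of 19 fatty acid oxidation genes 5 rose and 3 fell, shares near the 19.5% of all genes each way. The rises numbered from 2 without P1 library 3 to 8 without P1 library 5, the falls from 1 without P1 library 2 to 4, and the counts were 2 and 1 within the first sequencing run and 1 and 2 in the libraries with Xist alone. Pdk4, a kinase that inhibits pyruvate dehydrogenase, rose from 6.18, 17.9, 14.07 and 9.86 CPM to 25.7, 26.4, 27.9, 31.04 and 30.07 CPM (log2 fold change 1.23 ± 0.27, edgeR adjusted p = 0.00404). Cpt1a, the carnitine gate of mitochondrial fatty acid entry, measured 79.1, 85.4, 59.3 and 153 CPM and 117.5, 115, 90.3, 161 and 180.1 CPM and was not called (edgeR adjusted p = 0.175), although it was without P1 library 5, at 0.83. Of 30 oxidative phosphorylation subunits 15 fell and none of the 30 rose, with a median of -0.40 and not 1 fall of 2-fold. That count was 7, 8 and 9 without P1 library 4, P1 library 2 and 6-week library 5, 23 without P1 library 5, and 6 within the first run, so it depends on which libraries are used. Cox4i1, a cytochrome oxidase subunit, measured 597, 549.7, 666 and 373 CPM and 388, 386, 410.2, 282 and 356 CPM (log2 fold change -0.58 ± 0.17, edgeR adjusted p = 0.0171), and lost its call without P1 library 2 or 4, within the first run, and with the sequencing run or RNA integrity as a covariate.

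Glycolysis and hypoxia genes moved in both directions. Of 25 tested 11 fell, 5 rose and 9 were not called, against 19.5% of all genes each way. Pkm, pyruvate kinase, fell from 976, 1112, 916 and 956 CPM to 397, 459, 415, 494 and 509 CPM (log2 fold change -1.12 ± 0.12, edgeR adjusted p = 2.28e-05). Ldha, the muscle-type lactate dehydrogenase subunit, fell from 1432, 1634, 1292 and 1325 CPM to 670.5, 718, 761, 904 and 998 CPM, and Pgk1 from 87.9, 96.1, 78.5 and 77.4 CPM to 34.9, 45.0, 29.06, 33.5 and 44.8 CPM. Each of these 3 enzymes was lower in every 6-week library than in any P1 library. Slc2a1, the GLUT1 glucose carrier of endothelium, measured 65.9, 83.3, 44.6 and 51.8 CPM and 45.5, 48.8, 38.5, 53.6 and 57.8 CPM and was not called (log2 fold change -0.33 ± 0.19, edgeR adjusted p = 0.2002). The members that rose were Bnip3, Pfkfb3, Ndrg1, P4ha1 and Pfkp, with log2 fold changes between 0.65 and 1.601. Ndrg1, a gene induced by low oxygen and by differentiation, rose from 227, 278, 199.5 and 276 CPM to 534, 485, 612, 767 and 693 CPM.

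Cholesterol genes fell in 9 of 21 cases and rose in 1, Insig1 (0.97), which holds back the pathway's master regulator. Sqle, squalene epoxidase, fell from 42.6, 29.9, 18.9 and 60.0 CPM to 9.22, 4.72, 10.2, 5.64 and 5.91 CPM (log2 fold change -2.41 ± 0.34, edgeR adjusted p = 0.000218). In the libraries with Xist alone 4 of the 21 fell.

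The RNA of genes for antigen presentation to cytotoxic T cells rose as a whole. All 13 tested genes of MHC class I presentation were called higher, each by at least 2-fold, with a median log2 fold change of 1.80. B2m, the constant light chain of class I, measured 826, 736, 663 and 705 CPM at P1 and 2226, 2856, 2948, 1663 and 2417 CPM at 6 weeks (log2 fold change 1.73 ± 0.17, edgeR adjusted p = 1.53e-05). H2-K1, a classical heavy chain (chr17:33996012-34000333), measured 186, 152, 139.9 and 229 CPM and 1323, 1818, 1827, 1062 and 1773 CPM (log2 fold change 3.14 ± 0.22, edgeR adjusted p = 1.23e-06). Tap2, a subunit of the peptide pump of the endoplasmic reticulum, measured 147, 125, 121 and 131 CPM and 408, 449, 514, 430.0 and 474 CPM. Library 5 was the lowest at 6 weeks for B2m and H2-K1, and no P1 library reached it. The class I heavy chains are near-identical in parts, so the split of reads among H2-K1, H2-D1, H2-Q4 and H2-T23 is uncertain, while B2m, Tap1, Tap2, Tapbp and the immunoproteasome subunits do not share that limit. Nlrc5, the transactivator of class I genes, had the largest fold change of the 13, 4.93, from a mean of 0.453 CPM to 14.103 CPM. All 13 rose whichever library was left out and 11 did in the libraries with Xist alone.

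Class II genes, used mostly by dendritic cells and macrophages, stayed low. Of 9 tested members 2 rose, H2-Aa and H2-Ab1, a share near the 19.5% of all genes that rose. None of the 9 fell, and their median log2 fold change was 1.32, against 0.03 over all genes. H2-Aa went from 0, 0.763, 0.0893 and 0.1248 CPM to 2.55, 4.01, 5.02, 2.96 and 7.06 CPM, and H2-Ab1 from 2.08, 2.46, 7.01 and 3.66 CPM to 4.63, 10.6, 11.13, 8.15 and 12.97 CPM, a call that was lost without any 1 of 7 of the 9 libraries. Cd74, the class II invariant chain, measured 0.164, 1.48, 15.8 and 2.46 CPM and 9.73, 13.8, 4.57, 11.9 and 25.3 CPM; P1 library 4 stood apart, and without it the gene was called at 3.23. Ciita, the class II transactivator, measured at most 1.78 CPM in any library.

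Interferon-stimulated genes rose in 21 of 34 tested cases and none of the 34 fell, with a median log2 fold change of 1.11; the number of rises ran from 18 to 30 when 1 library was left out. Ifit3, an interferon-induced protein that restrains viral translation, measured 10.9, 3.99, 0.6254 and 8.03 CPM at P1 and 67.1, 74.4, 71.5, 99.9 and 100.3 CPM at 6 weeks (log2 fold change 3.82 ± 0.57, edgeR adjusted p = 0.000276); it has a close copy, Ifit3b, and reads may be split between them. Irf7, the transcription factor that amplifies the interferon response, measured 111, 45.2, 48.7 and 70.8 CPM and 161, 135, 184, 192 and 196 CPM (log2 fold change 1.33 ± 0.25, edgeR adjusted p = 0.00134). Rsad2, the antiviral enzyme viperin, measured 102, 45.0, 56.4 and 104 CPM and 509, 343, 540.0, 386 and 421 CPM (log2 fold change 2.52 ± 0.27, edgeR adjusted p = 2.51e-05). P1 libraries varied widely for Ifit3, library 4 being the lowest, and the 6-week libraries did not. Members that were not called included Isg15 (-0.12), Bst2 (0.19) and Cxcl10 (-1.28).

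Interferon acts through the interferon-stimulated response element (ISRE), searched here as GAAANNGAA on both strands in the same RefSeq windows. For the interferon list 27 of 35 genes matched, with 31 windows, of which 22 held the letters (71.0%). The share was 8.56% over all windows and 7.12% over those of the genes tested. Of the 14 windows of the 13 class I genes 3 held them (21.4%), and 11 held a CCAAT box (78.6%). The windows below belong to the class I gene and the 2 interferon genes with the smallest p among those with a match, with the ISRE letters, each on the other strand, in capitals.
H2-T23, chr17:36032652-36032951, minus strand: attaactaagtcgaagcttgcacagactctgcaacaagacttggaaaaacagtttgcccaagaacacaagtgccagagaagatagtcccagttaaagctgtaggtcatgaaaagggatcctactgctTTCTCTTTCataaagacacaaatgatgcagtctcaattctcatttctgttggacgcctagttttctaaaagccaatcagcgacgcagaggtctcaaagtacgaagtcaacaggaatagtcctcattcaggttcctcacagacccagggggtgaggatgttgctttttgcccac
Trim30a, chr7:104446076-104446375, minus strand: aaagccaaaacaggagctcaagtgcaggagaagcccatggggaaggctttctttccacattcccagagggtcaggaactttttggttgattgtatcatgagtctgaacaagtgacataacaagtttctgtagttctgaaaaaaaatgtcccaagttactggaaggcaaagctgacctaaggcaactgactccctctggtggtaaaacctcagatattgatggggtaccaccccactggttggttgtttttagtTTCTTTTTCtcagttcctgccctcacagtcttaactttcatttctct
Rsad2, chr12:26456403-26456702, minus strand: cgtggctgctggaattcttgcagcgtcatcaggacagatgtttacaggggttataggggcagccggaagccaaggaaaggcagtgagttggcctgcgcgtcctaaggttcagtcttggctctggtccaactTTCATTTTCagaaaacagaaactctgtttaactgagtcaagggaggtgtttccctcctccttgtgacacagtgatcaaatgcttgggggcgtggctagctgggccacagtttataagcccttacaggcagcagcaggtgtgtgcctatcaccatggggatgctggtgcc
The letters start 123 bases before the start in H2-T23, a nonclassical class I chain, 119 bases before it in Rsad2, and 4 bases after it in Trim30a, an interferon-induced tripartite motif protein. H2-T23 RNA rose from 97.0, 113, 84.7 and 96.1 CPM to 656, 731, 862, 695 and 629 CPM and Trim30a RNA from 37.4, 22.2, 22.9 and 27.13 CPM to 76.0, 88.4, 92.5, 97.9 and 100.1 CPM, neither with overlap.

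**Figure D3:**
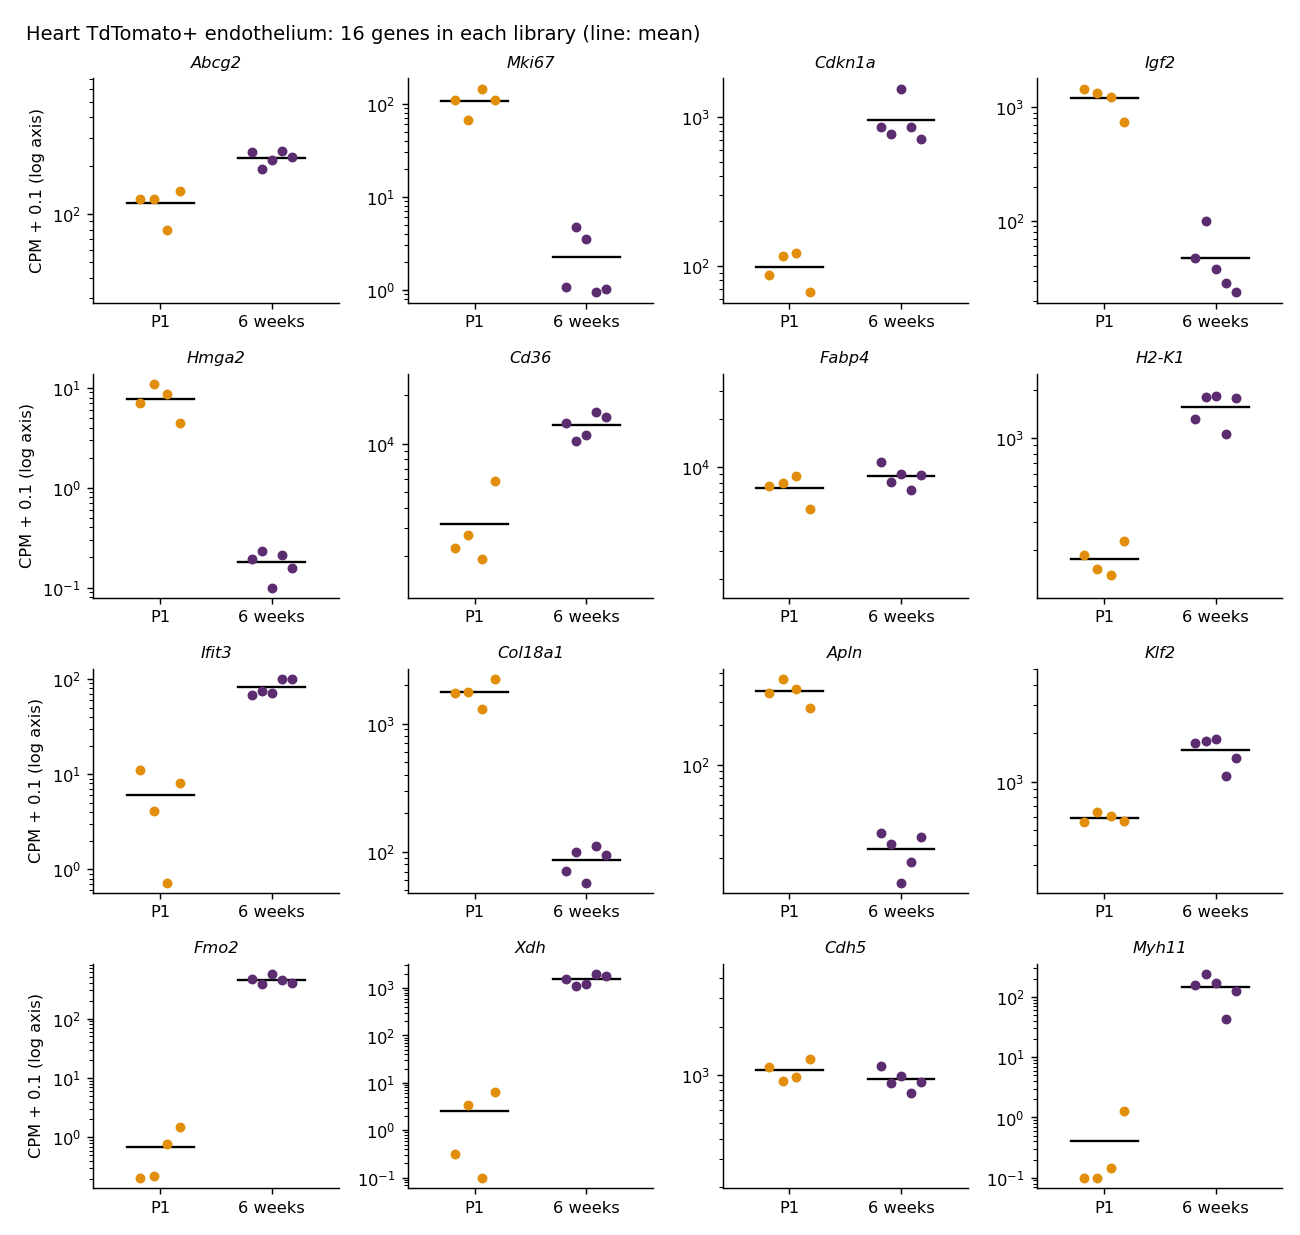
CPM of 16 genes (log axes, 0.1 added, each panel with its own range) in every P1 library (orange) and every 6-week library (purple), with a line at the group mean. Cdh5 and Fabp4 overlap between the ages, and the other 14 genes do not.

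The vessel wall's own scaffold was expressed less at 6 weeks. Of 16 basement membrane genes 13 fell and 2 rose, with a median log2 fold change of -0.997. Col4a1, a chain of the network-forming collagen IV, measured 5087, 5486, 4117 and 6708 CPM at P1 and 2786, 2436, 2723, 2780.1 and 3612 CPM at 6 weeks, and Col4a2, its partner chain, 3484, 3527, 3319.7 and 3432 CPM and 1508, 1408, 1525, 1695 and 2127 CPM. The log2 fold changes were -0.90 ± 0.16 and -1.06 ± 0.13 (edgeR adjusted p = 0.000830 and 7.56e-05), with both pairs of groups apart. Col18a1, the collagen from which endostatin is cleaved, fell furthest, from 1725, 1767, 1302 and 2238 CPM to 71.2, 98.9, 57.2, 112 and 94.9 CPM (log2 fold change -4.34 ± 0.23, edgeR adjusted p = 2.46e-07). Nid2, a linker of laminin and collagen IV, fell from 594, 727, 538 and 1091 CPM to 112, 86.9, 90.12, 129 and 127 CPM. The laminin γ1 gene Lamc1 fell from 675, 680.4, 572 and 826 CPM to 285, 241, 258, 222 and 215 CPM. Among other laminins Lamb1 and Lama4 fell, with log2 fold changes of -0.94 and -0.86, and Lama5 and Lamb2 rose, with 1.82 and 1.104. Laminin chains α5 and β2 are known for the basement membranes of mature vessels.

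Sprouting genes did not move as a block: of 17 genes known from tip cells 7 fell and 4 rose. The 4 rises are a share near the 19.5% of all genes that rose. Apln, the peptide ligand apelin made by sprouting endothelium, fell from 349, 448, 377 and 271 CPM to 30.9, 25.5, 13.02, 18.5 and 28.6 CPM (log2 fold change -3.95 ± 0.25, edgeR adjusted p = 7.83e-07). Mcam, the adhesion molecule CD146, fell from 715, 749, 658 and 668 CPM to 216, 216, 251, 231 and 241 CPM. Esm1, an endothelial proteoglycan induced by VEGF, rose from 2.95, 5.26, 2.28 and 5.04 CPM to 25.8, 15.7, 21.8, 23.8 and 19.05 CPM (log2 fold change 2.45 ± 0.31, edgeR adjusted p = 9.63e-05). Angpt2, the antagonist of the receptor TIE2, rose from 16.4, 31.5, 28.6 and 27.5 CPM to 88.4, 66.6, 69.1, 76.2 and 73.8 CPM (log2 fold change 1.52 ± 0.19, edgeR adjusted p = 9.11e-05). These tip cell genes thus had non-overlapping groups in opposite directions.

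Of 14 genes of the VEGF and angiopoietin system 7 rose, 2 fell and 5 were not called, against 19.5% of all genes each way, the falls being those of Vegfa (-0.88) and the co-receptor Nrp2 (-0.66). Flt1, the VEGF receptor that acts largely as a decoy, rose from 431, 411, 439 and 399.7 CPM to 1015, 906, 1109, 995 and 854 CPM (log2 fold change 1.22 ± 0.11, edgeR adjusted p = 1.09e-05). Tek, which encodes TIE2, rose from 415, 384, 299 and 777 CPM to 1008, 792, 978, 1414 and 1167 CPM, and Ptprb, the phosphatase that restrains TIE2, from 366, 397, 400.0 and 544 CPM to 1437, 1186, 1540.2, 1307 and 1141 CPM. Kdr, the main signalling receptor for VEGF, measured 1062, 1039.8, 831 and 2378 CPM and 2129, 1762, 1809, 2656 and 2322 CPM. P1 library 5 stood among the 6-week values for Kdr, which was not called (log2 fold change 0.69 ± 0.27, edgeR adjusted p = 0.0664), and without that library it was, at 1.13.

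Junction genes rose in 7 of 14 tested cases. Jam2 and Jam3, junctional adhesion molecules, rose from 272, 269, 229 and 558 to 1394, 1228, 1253, 1945 and 1633 CPM and from 45.7, 40.4, 47.2 and 54.6 to 119.7, 139, 128, 124 and 166 CPM. Cldn5, the claudin of endothelial tight junctions, was the 1 member that fell, from 1143, 1171, 1245 and 1232 CPM to 828, 655, 667, 619 and 750.4 CPM (log2 fold change -0.77 ± 0.11, edgeR adjusted p = 0.000299).

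Arterial and Notch genes rose in 12 of 24 cases and fell in 2, Gja4 (-1.27) and Unc5b (-1.12). Dll1, a Notch ligand of arteries, rose from 12.9, 21.8, 24.4 and 35.04 CPM to 97.1, 112, 121, 97.0 and 100.4 CPM (log2 fold change 2.16 ± 0.24, edgeR adjusted p = 3.79e-05), and Mgp, an inhibitor of calcification, from 13.999, 23.3, 15.99 and 6.82 CPM to 75.5, 245, 127, 99.7 and 96.2 CPM. Sox17, a transcription factor of arterial fate, measured 400.0, 475, 391.6 and 331 CPM and 349, 301, 438, 386 and 373 CPM, and Notch1 312, 264, 304 and 218 CPM and 268, 271, 275, 311 and 320.5 CPM. Both overlapped and neither was called (edgeR adjusted p = 0.557 and 0.685). Gja5, the arterial connexin 40, measured 41.6, 40.3, 30.4 and 21.3 CPM and 57.001, 51.9, 46.6, 72.5 and 39.5 CPM; its call at 0.68 ± 0.23 (edgeR adjusted p = 0.0337) was lost without any 1 of 5 libraries.

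Venous and activated-endothelium genes rose in 9 of 17 cases and fell in 4, or in 2 without any 1 of 6 libraries. The 4 falls are a share near the 19.5% of all genes that fell. Vwf, the platelet-binding factor stored by venous and large-vessel endothelium, rose from 70.3, 129.5, 104 and 68.8 CPM to 249.7, 631, 374, 314 and 194 CPM (log2 fold change 1.92 ± 0.33, edgeR adjusted p = 0.000758). Lrg1, a glycoprotein of venules, rose from 0, 2.76, 0 and 0.874 CPM to 44.3, 74.9, 126, 103 and 50.5 CPM (log2 fold change 6.40 ± 0.86, edgeR adjusted p = 0.000146), and Vcam1, the leukocyte adhesion molecule that mural cells and fibroblasts also make, from 7.05, 18.2, 6.39 and 17.4 CPM to 82.5, 142, 114, 77.6 and 77.9 CPM. Library 2, which had the highest fibroblast and mural sums, was the highest 6-week library for Vwf and Vcam1. Nr2f2, the COUP-TFII regulator of venous fate, measured 40.2, 35.5, 69.3 and 33.7 CPM and 37.1, 63.3, 48.5, 22.6 and 26.2 CPM and was not called (edgeR adjusted p = 0.686). Aplnr, the apelin receptor, fell from 1397, 1322, 1219 and 2741 CPM to 673, 707, 633, 745 and 1082 CPM (log2 fold change -1.12 ± 0.24, edgeR adjusted p = 0.00347), so that ligand and receptor were both lower at 6 weeks.

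Genes of laminar flow rose in 9 of 15 cases and fell in 3, the falls being near the 19.5% of all genes that fell. Klf2, the transcription factor induced by shear stress, rose from 557, 650.2, 609.5 and 567 CPM to 1733, 1784, 1839, 1076 and 1394 CPM (log2 fold change 1.39 ± 0.16, edgeR adjusted p = 5.40e-05). Trpv4, a mechanosensitive calcium channel, rose from 16.2, 17.3, 15.5 and 16.8 CPM to 90.04, 79.0, 135, 83.2 and 83.9 CPM (log2 fold change 2.52 ± 0.18, edgeR adjusted p = 1.74e-06). Nos3, the endothelial nitric oxide synthase, measured 868, 864, 709 and 922 CPM and 742, 748, 821, 869 and 723 CPM, overlapping and not called (log2 fold change -0.11 ± 0.12, edgeR adjusted p = 0.494). Ddah2, of the family whose best-known member degrades an inhibitor of that synthase, fell from 577, 513, 546 and 440.2 CPM to 233, 208, 249.6, 214 and 219 CPM.

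Of 21 BMP and TGF-beta genes 9 rose and 2 fell. Acvrl1, the endothelial receptor ALK1, rose from 162, 177, 175 and 183 CPM to 478, 421, 568, 698 and 718 CPM (log2 fold change 1.72 ± 0.17, edgeR adjusted p = 1.45e-05). Bmp6, a ligand made by endothelium, rose from 40.8, 62.6, 42.3 and 93.6 CPM to 411, 327, 448, 419 and 453 CPM, and Id1, a target of BMP receptors, from 470.5, 483, 403 and 308 CPM to 1259.8, 1067, 1068, 881 and 981 CPM. Smad6, the inhibitory target of the same pathway, measured 120.1, 125, 111 and 62.4 CPM and 73.0, 108, 100.2, 118 and 86.9 CPM and was not called (edgeR adjusted p = 0.714).

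Genes under hormonal and daily control rose in part. Of 14 glucocorticoid response genes 13 rose, with a median log2 fold change of 1.57. The rises numbered 11 or 12 when any 1 library was left out. Of this list Per1 is also on the clock list and Dusp1 on the immediate early list. Tsc22d3, the glucocorticoid-induced leucine zipper, rose from 269, 225, 192 and 253 CPM to 627, 711, 1041, 678 and 808 CPM (log2 fold change 1.72 ± 0.17, edgeR adjusted p = 1.63e-05), and Klf9, a glucocorticoid- and thyroid-hormone-induced factor, from 53.7, 75.3, 67.8 and 36.7 CPM to 347, 314, 461, 379 and 408 CPM (log2 fold change 2.71 ± 0.21, edgeR adjusted p = 3.12e-06). Fkbp5, the receptor's cochaperone and usual target, was the exception: it measured 38.9, 49.5, 69.2 and 55.1 CPM and 16.8, 32.5, 50.7, 58.1 and 41.5 CPM and was not called (log2 fold change -0.42 ± 0.30, edgeR adjusted p = 0.301). The list is thus not uniform in its best-known target.

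Of 18 clock genes 6 rose and 3 fell, the falls being near the 19.5% of all genes that fell; without 6-week library 6 there were 5. Arntl, the BMAL1 activator of the clock, rose from 12.14, 14.8, 10.9 and 27.3 CPM to 77.7, 69.1, 112, 99.5 and 45.1 CPM (log2 fold change 2.31 ± 0.33, edgeR adjusted p = 0.000199). Dbp, a strongly rhythmic output gene, measured 6.89, 9.41, 16.8 and 6.57 CPM and 6.12, 9.39, 2.93, 2.34 and 37.01 CPM, overlapping and not called (edgeR adjusted p = 0.834). Library 6 was the highest for Dbp and the lowest 6-week library for Arntl. The hours at which tissue was taken are not given in the sources used here.

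Immediate early and heat shock genes, which dissociation of tissue also induces, rose in 15 of 24 cases and fell in 1, Myc; in the libraries with Xist alone 9 rose and 2 fell. Fos rose from 639.7, 1193, 897 and 844 CPM to 2715, 2634, 1533, 1864 and 3897 CPM and Fosb from 8.53, 13.6, 12.999 and 15.06 CPM to 84.9, 97.5, 52.6, 54.3 and 142 CPM, subunits of the AP-1 factor (log2 fold changes 1.5004 ± 0.26 and 2.78 ± 0.31, edgeR adjusted p = 0.000894 and 4.10e-05). Egr1 measured 335, 629, 444 and 706 CPM and 881, 1119.8, 469, 865 and 2148 CPM, with overlap, and its call was lost without any 1 of 5 libraries. The part of dissociation in these differences was not tested.

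Abcg2 was not alone among transporters. Of 15 tested genes of the ABC family 7 rose and 1 fell, the cholesterol exporter Abcg1 (-0.49), a call lost without any 1 of 6 libraries. Abcb1a, the drug efflux pump P-glycoprotein of capillary endothelium, rose from 29.3, 35.7, 37.1 and 41.4 CPM to 188, 129, 202, 189 and 164 CPM (log2 fold change 2.28 ± 0.17, edgeR adjusted p = 1.72e-06). Abcc4, an exporter of cyclic nucleotides and drugs, rose from 13.01, 18.5, 24.8 and 25.13 CPM to 114, 79.5, 104, 123 and 124 CPM, and Abcb1b, the paralog of Abcb1a with which it may share reads, from 15.97, 16.9, 17.3 and 16.8 CPM to 52.1, 44.8, 34.7, 43.5 and 58.4 CPM. These 3 had larger fold changes than Abcg2, whose difference from them was not tested.

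The largest rises among genes of at least 10 CPM in the higher group were switches from near absence. Fmo2, a flavin monooxygenase of drug metabolism, rose from 0.109, 0.127, 0.670 and 1.41 CPM to 464, 375, 563, 448 and 389.8 CPM (log2 fold change 9.53 ± 0.52, edgeR adjusted p = 2.73e-07). Xdh, the xanthine oxidoreductase of purine breakdown, rose from 0.219, 3.35, 0 and 6.28 CPM to 1538, 1094, 1229.7, 1989 and 1812 CPM (log2 fold change 9.24 ± 0.94, edgeR adjusted p = 1.87e-05). Cyp1a1, the cytochrome P450 induced through the aryl hydrocarbon receptor, rose from 0.0547, 0, 0 and 0.0832 CPM to 53.3, 60.8, 39.3, 10.997 and 110.3 CPM. Fmo2 was even across the 6-week libraries, and Cyp1a1 was lowest in library 5 and highest in library 6. Slc1a1, a glutamate and cysteine carrier, went from 0, 0, 0 and 0.1248 CPM to 18.8, 16.4, 20.7, 30.4 and 34.03 CPM, and Pbld1, which has a close paralog, from 0, 0, 0 and 0.0416 CPM to 41.8, 16.14, 41.8, 37.2 and 28.2 CPM.

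For a few genes P1 counts were absent altogether. Olfr78, an olfactory receptor known from vascular smooth muscle, had no count at P1 and 23.6, 33.6, 21.7, 4.02 and 21.12 CPM at 6 weeks, at least 612-fold higher against a floor of 3 counts over the P1 group. Slc2a4, the insulin-regulated glucose carrier GLUT4, had no count at P1 and 19.8, 32.8, 11.4, 6.64 and 13.5 CPM at 6 weeks, at least 496-fold higher. Lmod1, a smooth muscle actin nucleator, had no count at P1 and 11.3, 21.5, 18.98, 2.46 and 7.40 CPM, at least 362-fold higher. In all 3 genes library 5, the 6-week library with the lowest mural sum, was the lowest at 6 weeks and library 2, with the highest, was the highest. Mrvi1, a smooth muscle regulator of calcium release, followed the same order at its ends, from 0, 0, 0 and 0.0832 CPM to 26.4, 45.3, 10.5, 6.70 and 20.5 CPM. Across all genes, 81 had no count in any P1 library and 6 had none in any 6-week library.

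The 10 largest falls among genes of at least 10 CPM at P1, predicted transcripts aside, were mostly genes of the cycle: Cdc25c, Kif11, Dtl, Pole, Cep55, Birc5, Iqgap3, Kif15 and Cenpm, with log2 fold changes from -8.05 to -6.92. Cdc25c, the phosphatase that releases CDK1, went from 10.06, 7.51, 13.5 and 17.3 CPM to 0.0463, 0.0882, 0, 0 and 0.0574 CPM (log2 fold change -8.05 ± 0.66, edgeR adjusted p = 4.23e-06). Arxes1, an adipocyte-related gene with a close copy, was the remaining member of the 10, falling from 26.9, 21.3, 26.7 and 19.2 CPM to 0, 0, 0.348, 0.223 and 0.230 CPM.

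The same comparison in the TdTomato- heart endothelium asks whether the age difference belongs to the reporter-positive cells; these are the CD31+CD45-Ter119- cells without the reporter that the labels match by number to each TdTomato+ library, 5 at 6 weeks and 4 at P1. In TdTomato- cells 6788 of 13324 genes were called (50.9%), 3339 higher than at P1 and 3449 lower (25.9%), of which 1550 (11.6%) and 1727 (13.0%) by at least 2-fold. The difference between the 2 age differences was tested with the TdTomato+ and TdTomato- fractions of a number kept as a pair. It was called for 560 of 13992 genes (4.00%), with 332 where the age difference was higher in TdTomato+ cells (2.37%) and 228 where it was lower (1.63%), and it reached 2-fold for 303 (2.17%) and 50 (0.357%) of these. The difference was called for 2 of 26 mitosis genes, Birc5 and Kif11, both lower, and by edgeR for 0 of 28 replication genes, of which 1 higher and 1 lower had an unadjusted p below 0.05. The log2 fold change of Cdk1 was -4.57 in TdTomato+ and -4.61 in TdTomato- cells (difference 0.09 ± 0.33, edgeR adjusted p = 0.933). At an unadjusted p below 0.05, 6 of 13 class I presentation genes and 10 of 34 interferon genes had a lower age difference in TdTomato+ cells and none of the 13 or 34 a higher one, against 1231 lower and 1319 higher of all 13992 genes. At the adjusted p 1 gene of each list was called, both lower, and in the interferon list it was Rsad2 (difference -0.73 ± 0.12, edgeR adjusted p = 0.00625). For Abcg2 the age difference was 0.75 in TdTomato- cells, and the difference of 0.23 ± 0.17 was not called (edgeR adjusted p = 0.517). A p above the threshold does not show that the fractions aged alike.

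Genes of vessel type were often among those that differed between the fractions. Of 17 venous genes 11 had a higher age difference in TdTomato+ cells and 0 a lower one by edgeR's adjusted p, against 12 and 2 at an unadjusted p below 0.05. Vwf rose by 1.92 in TdTomato+ cells and measured -0.31 in TdTomato- cells, a difference of 2.22 ± 0.29 (edgeR adjusted p = 0.00239). Nr2f2 measured -0.18 and -1.51, a difference of 1.33 ± 0.34 (edgeR adjusted p = 0.0466). Of 24 arterial and Notch genes 10 had a lower age difference in TdTomato+ cells and 2 a higher one, Dll1 and Mgp. Sox17 measured -0.11 in TdTomato+ cells and rose by 0.95 in TdTomato- cells, a difference of -1.05 ± 0.11 (edgeR adjusted p = 0.000939). Stmn2, a microtubule regulator used as an arterial marker, rose by 1.34 and 2.40 (difference -1.04 ± 0.17, edgeR adjusted p = 0.00487).

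Endocardial markers showed the difference from the other side. Of 12 tested 6 had a higher age difference in TdTomato+ cells, and 10 of the 12 fell with age in TdTomato- cells while 1 of 11 rose and none of the 11 fell in TdTomato+ cells. Npr3, the natriuretic peptide clearance receptor of the endocardium, measured 0.820, 5.004, 3.84 and 6.33 CPM and 1.62, 81.9, 5.32, 5.81 and 4.59 CPM in TdTomato+ cells. Library 2 set the 6-week mean, and the change of 2.31 ± 1.06 was not called (edgeR adjusted p = 0.105), while in TdTomato- cells the log2 fold change was -3.14 (edgeR adjusted p = 2.29e-07). Cytl1, a secreted factor of endocardium, went from 0, 0, 0 and 1.21 CPM to 14.2, 81.1, 4.27, 23.7 and 20.9 CPM, again highest in library 2, with a difference between fractions of 6.99 ± 1.23 (edgeR adjusted p = 0.00827). Fibroblast markers followed the same form, with 9 of 16 higher, among them Postn, the matricellular protein periostin, which measured -5.06 in TdTomato- cells and 1.44 ± 0.96 in TdTomato+ cells (difference 7.66 ± 1.11, edgeR adjusted p = 0.00363). In TdTomato- cells 10 of 12 endocardial and 12 of 15 tested fibroblast markers fell, but a fall there did not make up every difference. Cytl1 measured -0.35 in TdTomato- cells (edgeR adjusted p = 0.594) and rose by 6.48 in TdTomato+ cells. The fibroblast markers Dcn and Lum measured -1.01 and -1.35 in TdTomato- cells and rose by 3.98 and 4.02 in TdTomato+ cells. The P1 values of Postn in TdTomato+ cells ran from 0.602 CPM in library 2 to 48.6 CPM in library 5.

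Capillary fatty acid uptake genes differed the other way. Of 19 fatty acid uptake genes 6 had a lower age difference in TdTomato+ cells and 0 a higher one by edgeR's adjusted p, against 9 and 1 at an unadjusted p below 0.05. Gpihbp1 rose by 0.55 against 1.28 in TdTomato- cells (difference -0.70 ± 0.15, edgeR adjusted p = 0.0250), and Fabp4 measured 0.24 against 0.99 (difference -0.71 ± 0.16, edgeR adjusted p = 0.0294). Cd36 measured 2.05 against 2.41 and its difference was not called (difference -0.22 ± 0.21, edgeR adjusted p = 0.632). The largest fitted differences among genes of at least 10 CPM in 1 of the 4 groups, predicted transcripts aside, were those of Tro, Mrvi1, Postn, Ccdc3 and Comp on the higher side and Cdc25c, Aim1, Iqgap3, Kif11 and Fez1 on the lower side, from -3.29 ± 0.67 to -2.31 ± 0.43. Tro, the adhesion protein trophinin, went from 13.13, 12.2, 14.6 and 10.45 CPM at P1 to no read in any 6-week library of TdTomato- cells, at least 398-fold lower against a floor of 3 counts over the group. In TdTomato+ cells its log2 fold change was -3.10. The fitted difference of Tro thus depends on the prior count, as does that of Mrvi1, which had 2 reads in all P1 TdTomato+ libraries together. The count of 560 depended on single pairs, being 242 without P1 pair 3 and 1030 without P1 pair 5.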

How the data were processed

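RNA of sorted heart endothelium was measured by mRNA-seq. The deposited table holds integer read counts for 15569 genes, which the authors made with STAR and featureCounts on mm10, per the submitters' processing notes, with no versions given there. The authors' deposited run sheets give quality scores (RNA integrity, mapping and mitochondrial shares) per library, and 2 rows of other samples on them were not used. The labels name the TruSeq RNA Access kit while the run sheets name SMART-Seq v4, and coding reads split almost evenly between strands, so overlapping and antisense genes cannot be told apart. Total counts give the depth stated in the report.

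Counts were analysed with edgeR 4.0.16 in R 4.3.3 (TMM, filterByExpr, which removed 2390 genes, quasi-likelihood test, Benjamini-Hochberg adjustment), 5 against 4 libraries with no covariate. In every pair of libraries of 1 age counts differed by more than sampling noise, so each was counted as 1 sample. The difference between fractions kept the replicate number, which the labels tie to matched fractions, as a block. Numbers 2, 4 and 5 occur at both ages; deviations of same-numbered libraries correlated at -0.02, 0.20 and 0.26 over 9284 genes, which did not make them pairs. Members and lists were chosen with earlier results of these data known. Named genes are Abcg2, the 10 largest rises and falls called with at least 10 CPM in the higher group and no overlap, up to 3 smallest p and set key members of each of 37 lists (631 of 650 listed genes were in the table), and the 5 largest differences between fractions in each direction. On simulated counts of 13179 genes for the age comparison, 100 genes were changed by 2-fold, 100 by 4-fold and the rest not at all. Of these, 44 and 67 were recovered, with 7 false calls. In the data 39.1% of genes were called, so the simulated share of changed genes was far smaller. The recovery and false calls therefore do not carry over to the age comparison itself. Alternatives were other scalings, DESeq2 1.42.0, filters, the sequencing run, RNA integrity, other sample sets, the replicate block, a test against 2-fold, and leaving out each library; the Xist subset was added after seeing the data. Promoter windows are from RefSeq (GRCm38.p6).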

Additional observations from a re-analysis of the deposited data

Results flagged for a closer look

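In groups of 4 or 5 libraries, a library was marked where its gap to the nearest other library was large against the group's range. Chance marks about 1 in 20 groups. Where the other libraries all held 0, any count is marked, and that rate does not hold. That was so for Cytl1, Mrvi1, Pbld1, Slc1a1 and Tcf21 in P1 library 5 and for Tnni1 in 6-week library 6. The marks gathered in P1 library 5 and 6-week libraries 2 and 6. The values below are CPM, with the range of the other libraries of the group in brackets. P1 library 3 stood below the others of its age for Cdca8 at 26.9 (59.3 to 64.5). P1 library 3 stood above the others of its age for H2-Aa at 0.763 (0 to 0.1248). P1 library 4 stood above the others of its age for Cd74 at 15.8 (0.164 to 2.46) and Etfa at 115 (105 to 106). P1 library 5 stood above the others of its age for Acta2 at 8.11 (1.09 to 2.06), Aplnr at 2741 (1219 to 1397), Comp at 1.12 (0 to 0.0848), Cytl1 at 1.21 (0 to 0) and Jam2 at 558 (229.5 to 272). The same held there for Kdr at 2378 (831 to 1062), Mmrn1 at 1.66 (0.0424 to 0.0547), Mrvi1 at 0.0832 (0 to 0), Myh11 at 1.17 (0 to 0.0447) and Pbld1 at 0.0416 (0 to 0). The same held there for Pdgfra at 13.7 (0.0447 to 1.75), Slc1a1 at 0.1248 (0 to 0), Tcf21 at 0.749 (0 to 0), Txnip at 694 (401 to 442) and summed Lymphatic endothelial markers at 368 (283 to 293). The same held there for summed Cardiomyocyte markers at 390.4 (156 to 185) and summed Fibroblast markers at 499 (144 to 199). P1 library 5 stood below the others of its age for Uhrf1 at 69.5 (87.4 to 90.2). 6-week library 2 stood above the others of its age for Comp at 67.1 (1.298 to 12), Cytl1 at 81.1 (4.27 to 23.7), H19 at 32.2 (1.90 to 3.90), Hells at 2.20 (1.02 to 1.17) and Kif15 at 0.485 (0 to 0.139). The same held there for Npr3 at 81.9 (1.62 to 5.80) and summed Endocardial markers at 499.5 (178 to 253). 6-week library 4 stood above the others of its age for Cdkn1a at 1552 (716 to 863), Pole at 0.696 (0 to 0.0927) and Trpv4 at 135 (79.0 to 90.04). 6-week library 5 stood below the others of its age for Ech1 at 264 (339 to 358). 6-week library 5 stood above the others of its age for Igfbp3 at 851 (531 to 603). 6-week library 6 stood above the others of its age for Aplnr at 1082 (632 to 745), Dbp at 37.01 (2.34 to 9.39), Laptm5 at 7.46 (0.745 to 1.45), Pf4 at 10.5 (1.74 to 3.97) and Timp4 at 2190.0 (1445 to 1649). The same held there for Tnni1 at 0.230 (0 to 0), summed Leukocyte markers at 68.9 (11.6 to 16.4) and summed Erythroid and platelet markers at 57.1 (10.5 to 19.13).

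The age difference of 44 named genes differed between the fractions by the paired edgeR test at an adjusted p below 0.05. Values are the fitted log2 age difference in TdTomato+ cells minus that in TdTomato- cells; those of Tro and Mrvi1, with groups at 0 and 2 reads, depend on the prior count. It was higher in TdTomato+ cells for Tro (7.92), Mrvi1 (7.71), Postn (7.66), Ccdc3 (7.43), Comp (7.33), Cytl1 (6.99), Dcn (6.001) and Lum (5.95). Next in order were Mmrn1 (5.14), Pdgfrb (4.79), Lyve1 (4.55), Lrg1 (4.05), Npr3 (4.04), Pdgfra (3.96), Mgp (3.57) and Fgl2 (3.45). Next in order were Vwf (2.22), Vcam1 (2.17), Ptgs1 (1.41), Nr2f2 (1.33), Myc (1.303) and Dll1 (0.97). It was lower in TdTomato+ cells for Cdc25c (-3.29), Aim1 (-3.29), Iqgap3 (-2.60), Kif11 (-2.59), Fez1 (-2.31), Birc5 (-1.45), Trpv4 (-1.16) and Sox17 (-1.05). Next in order were Stmn2 (-1.04), Apln (-0.94), Acvrl1 (-0.77), Wt1 (-0.76), Col4a2 (-0.74), Cldn5 (-0.74), Rsad2 (-0.73) and Id1 (-0.71). Next in order were Fabp4 (-0.71), Gpihbp1 (-0.70), Cdh5 (-0.52), Col4a1 (-0.51), Fos (-0.51) and Gnas (-0.39).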

How the results depend on the processing

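Counts of called genes kept within 1.5 times the main 5147 (2574 higher, 2573 lower) under other scalings (5149 to 5263), DESeq2 (5707), either low-count filter (5120 and 4344), the sequencing run or RNA integrity as a covariate (4386 and 4444), the first run alone (3953, the same libraries as without those labelled Muscle), all TdTomato+ libraries in the fit (6437), and the leaving out of each library, which gave 4374 to 5958 called, 2202 to 3166 higher and 2164 to 2792 lower. With P1 library 1, which failed quality control, 655 were called, 348 higher and 307 lower, and Abcg2 and Gja5 turned to -0.80 and -1.21, neither called. With the replicate block 3134 were called, 1586 higher and 1548 lower; of the 3 shared numbers, 6-week libraries 4 and 5 correlated best with their own number and library 2 did not. A test against a 2-fold change called 1360, 807 higher and 553 lower, as fewer genes can pass it. Among libraries with Xist and without Ddx3y RNA, an alternative added after seeing the data, 3941 were called and Dbp turned to -2.06 (edgeR adjusted p = 0.0285). Apart from the stated reason for the 2-fold test, the cause of these moves was not tested. The count of genes differing between the fractions, 560 with the replicate block, was 406 with no replicate block, 512 within the first run, and 242 to 1030 as each pair was left out. At this depth, genes below about 1 CPM rest on few reads, and the number of libraries limits the precision of the rest.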

Other observations

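Lymphatic endothelial markers moved apart from each other. Of 9 tested members 5 rose and 1 fell, against 39.1% of all genes called, while their summed level was 183 to 348 CPM at 6 weeks and 283 to 368 CPM at P1. Mmrn1, the extracellular matrix protein multimerin 1, rose from 0.0547, 0.0424, 0.0447 and 1.66 CPM to 11.8, 50.1, 20.7, 57.9 and 12.6 CPM (log2 fold change 6.01 ± 1.01, edgeR adjusted p = 0.000650). Lyve1, a hyaluronan receptor that some macrophages also carry, rose from 0.328, 0.806, 2.68 and 2.87 CPM to 4.26, 47.7, 11.9, 17.7 and 6.02 CPM (log2 fold change 3.38 ± 0.82, edgeR adjusted p = 0.00632). Nts, which encodes the peptide neurotensin, was the member that fell, from 143, 159, 154 and 163 CPM to 36.8, 42.3, 46.9, 23.9 and 23.9 CPM (log2 fold change -2.15 ± 0.21, edgeR adjusted p = 1.26e-05). Prox1, the master regulator of lymphatic fate, measured 1.31, 0, 4.15 and 3.20 CPM and 0.139, 10.2, 0, 1.67 and 4.59 CPM and was not called (edgeR adjusted p = 0.754).

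Wt1, a transcription factor of the epicardium that is also known from growing coronary endothelium, fell from 82.5, 104, 88.3 and 89.3 CPM to 41.4, 32.3, 40.2, 34.9 and 36.9 CPM (log2 fold change -1.29 ± 0.13, edgeR adjusted p = 1.82e-05). Krt19, an epithelial keratin of the mesothelium, fell from 23.02, 20.9, 20.4 and 20.97 CPM to 4.50, 2.60, 9.54, 6.64 and 2.35 CPM, and the mesothelial marker Upk3b did not pass the filter on low counts. The groups did not overlap for Wt1 or Krt19. In TdTomato- cells the log2 fold change of Wt1 was -0.54, and the difference of -0.76 ± 0.13 between the fractions was called (edgeR adjusted p = 0.00732). Of 24 immediate early and heat shock genes 7 had a lower age difference in TdTomato+ cells and 1, Myc, a higher one; Fos rose by 1.5004 there and by 2.04 in TdTomato- cells (difference -0.51 ± 0.11, edgeR adjusted p = 0.0219).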
